A study of Mus musculus with 8 samples.

Results

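The 9 genes described here cover calmodulin and proteins that bind it or depend on it. They are the calmodulin genes Calm2 and Calm3, the kinase genes Camk2a, Camk2b, Camk2d, Camk2g and Camk4, and the calmodulin binders Nrgn and Pcp4. The genes were found by symbol, and all 9 of 9 were present among the 55341 genes of the count files. The RNA came from nuclei of cortical GABAergic neurons, the inhibitory neurons of the cortex, of juvenile mice in which a Cre-dependent reporter put a fluorescent protein into those nuclei; the driver of Cre is not given in the sources used here. All the mice were hypothyroid, because their mothers had been treated during pregnancy with propylthiouracil (PTU), a blocker of thyroid hormone synthesis. The PTU group held mice 9 to 12 (n = 4). The PTU+TH group held mice 13 to 16 (n = 4), which had also been injected intraperitoneally with thyroid hormone (TH), 24 h ahead of brain collection. No group with normal thyroid hormone is among these 8 libraries, so levels in untreated mice are not described.

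Calmodulin is a small calcium sensor. When calcium enters a neuron, calmodulin binds it and switches on enzymes, among them the CaMKII kinases, holoenzymes built from the products of Camk2a, Camk2b, Camk2d and Camk2g, and CaMKIV, a mostly nuclear kinase that phosphorylates transcription factors such as CREB. Neurogranin (Nrgn) and Pcp4 hold calmodulin through a short IQ motif and so set how much of it is free. Nrgn and Camk4 are known from earlier work as genes that respond to thyroid hormone in the brain. In cortex, Camk2a and Nrgn are best known from excitatory neurons.

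Calm2 and Calm3 are shown first by sequence, because their counts are compared below and their coding regions resemble each other. Each coding region is 450 bases long in the GENCODE M21 transcripts, and the identity between them was 82.7%. Of the 78 bases that differ, 74 are at the third base of a codon. The longest run shared at the same place was 17 bases. The first 90 bases from the start codon are given below, with capitals at the 15 positions where they differ. How the reads of these genes were told apart is not stated in the sources used here.
Calm2: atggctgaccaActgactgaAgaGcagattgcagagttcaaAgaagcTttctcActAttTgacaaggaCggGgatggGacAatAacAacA
Calm3: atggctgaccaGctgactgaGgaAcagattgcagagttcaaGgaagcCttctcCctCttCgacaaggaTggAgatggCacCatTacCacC

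Promoter sequence was taken from the RefSeq windows of GRCm38.p6, which reach from 250 bases before to 50 bases after a gene's start. Of the 9 members, 5 had a window. The windows were searched on both strands for AGGTCA, the hexamer that thyroid hormone receptors bind, and for its direct repeat with 4 bases between. Of 32851 mouse windows, 16.3% held the hexamer and 0.0152% the repeat. Among the members with a window (Camk2b, Camk2d, Calm3, Nrgn and Pcp4), there was 1 match to the hexamer, in Pcp4, and 0 to the repeat. The 3 stretches upstream of annotated exons below run 5′ to 3′ on the gene's strand: those of Nrgn and Pcp4, the calmodulin binders among the members, and that of Pcp4l1, the paralogue of Pcp4 that differed between the groups. The stretches lie at chr9:37552905-37552995 (minus strand), chr16:96467356-96467605 (plus strand) and chr1:171196269-171196518 (minus strand). Capitals mark the match in Pcp4, which is in reverse orientation. A match is a description of the letters, not a binding site.
Nrgn: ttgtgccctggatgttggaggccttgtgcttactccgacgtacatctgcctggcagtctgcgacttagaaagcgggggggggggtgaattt
Pcp4: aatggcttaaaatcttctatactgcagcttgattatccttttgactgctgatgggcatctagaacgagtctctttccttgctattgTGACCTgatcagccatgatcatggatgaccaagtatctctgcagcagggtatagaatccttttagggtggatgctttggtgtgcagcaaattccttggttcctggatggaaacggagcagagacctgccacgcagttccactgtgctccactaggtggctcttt
Pcp4l1: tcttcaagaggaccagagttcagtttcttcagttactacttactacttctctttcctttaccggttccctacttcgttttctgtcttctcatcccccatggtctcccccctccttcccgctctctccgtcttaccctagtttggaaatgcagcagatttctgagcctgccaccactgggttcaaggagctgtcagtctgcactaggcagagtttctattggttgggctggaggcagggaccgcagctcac

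Library totals ran from 21762810 to 29084071 counts and did not separate the groups (exact permutation test, two-sided, p = 1; the smallest p that 70 arrangements allow is 0.0286). Levels are given as CPM, the usual depth-scaled count, here scaled by the library's total after normalization by the trimmed mean of M values. The GABAergic genes Gad1 and Gad2, whose enzymes make the transmitter GABA, were high in all libraries. Gad1 averaged 471 ± 51.7 CPM in the PTU mice and 422 ± 22.4 CPM in the PTU+TH mice, and Gad2 427 ± 25.9 and 458 ± 24.3 (SD, 4 mice per group). Of the 13 excitatory neuron markers, 12 were tested and 0 passed the test between the groups, with a summed level of 259.5 to 321.3 CPM in PTU and 264.8 to 374.3 CPM in PTU+TH. In GABAergic markers 7 of 9 were tested and 0 passed, with sums of 2388 to 2843 CPM and 2255 to 2489 CPM. Neurod1, Dlx1 and Dlx6 were listed at 0. Other genes cover each of them wholly, and of 1354 coding genes so placed 1353 were at 0 in all 8 libraries, so a 0 is not read as absence there. Y-linked genes had counts in 6 of the libraries and none in PTU+TH mice 15 and 16, so this difference between mice is partly shared with the groups.

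None of the 9 members passed the test between PTU+TH and PTU. By edgeR's quasi-likelihood test, 368 of 17355 genes, or 2.12%, had an adjusted p under 0.05 (1.49% higher and 0.634% lower in PTU+TH), and 0 of the 9 members did. At an unadjusted p under 0.05 there were 2 members, Camk2b and Camk4, where the share over all genes was 12.8%. By DESeq2, which called 748 genes (4.31%), 1 member was called, Camk2b. With limma voom, which called 2.05% of genes, and with the excitatory list as a covariate in edgeR, which called 3.11%, there were 0 members. In all, 6 members had positive and 3 had negative log2 fold changes (PTU+TH over PTU), with a median of 0.16 beside a median of -0.01 over all genes tested. In bulk nuclei, fewer cells of a type and less RNA per cell cannot be told apart.

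**Figure D1:**
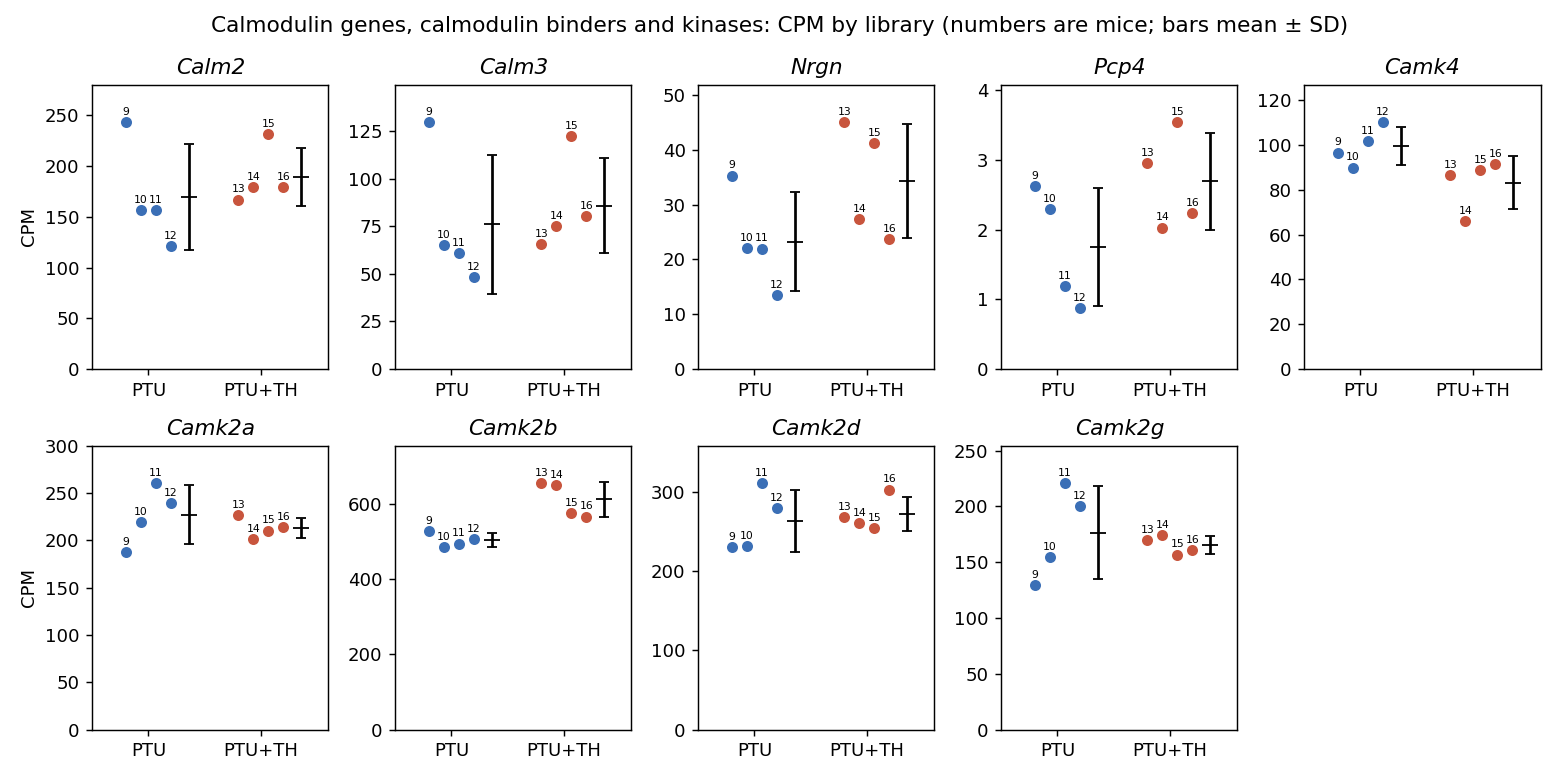
CPM of each gene (vertical axes, linear, from 0) in the 4 PTU libraries (blue) and the 4 PTU+TH libraries (red); each point is a mouse with its number, and the black bars are the mean ± SD. Camk2b is the gene whose groups do not overlap, with PTU between 485.6 and 527.7 CPM and PTU+TH between 565.9 and 655.7 CPM.

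Among the CaMKII genes, Camk2b, which encodes the beta subunit that also binds actin, had the highest level per kb and was the one whose groups did not overlap. The gene (chromosome 11, 5969644 to 6066362) stood at 527.7, 485.6, 494.0 and 506.4 CPM in PTU mice 9 to 12 and at 655.7, 648.9, 575.9 and 565.9 CPM in PTU+TH mice 13 to 16. All 4 PTU+TH libraries lay above all 4 PTU libraries, the only such case among the 9 members; over all genes tested groups that do not overlap made up 8.71% (4.68% higher and 4.03% lower in PTU+TH). The means were 503 ± 18.3 and 612 ± 47.2 CPM (SD, n = 4 each), a log2 fold change of 0.28 (SE 0.12, 95% interval 0.03 to 0.53). The edgeR adjusted p was 0.32. It was 0.0304 with DESeq2 and between 0.178 and 0.527 when a library was left out.

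Camk2a (chromosome 18, 60925618 to 60988152), the alpha subunit and the main CaMKII of excitatory synapses, had 187.9, 219.6, 261.0 and 239.7 CPM in PTU and 226.5, 201.7, 210.4 and 214.3 CPM in PTU+TH. The PTU+TH values all lay inside the PTU range. The log2 fold change was -0.09 (SE 0.11, 95% interval -0.33 to 0.15, edgeR adjusted p = 0.839), and it ranged from -0.17 without PTU mouse 9 to -0.02 without PTU mouse 11. Camk2g (chromosome 14, 20734875 to 20794088), the gamma subunit, had 129.6, 154.6, 221.2 and 200.5 CPM in PTU and 169.5, 174.3, 156.8 and 160.9 CPM in PTU+TH. Here too PTU+TH lay inside the PTU range, and the coefficient of variation was 23.7% in PTU. Its log2 fold change was -0.09 (SE 0.14, 95% interval -0.41 to 0.22, edgeR adjusted p = 0.886), and it ranged from -0.21 without PTU mouse 9 to 0.03 without PTU mouse 11.

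Camk2d (chromosome 3, 126596302 to 126846326), the delta subunit, had 230.5, 231.3, 311.4 and 279.4 CPM in PTU and 268.5, 260.8, 254.1 and 302.8 CPM in PTU+TH. The groups overlapped, with PTU mice 9 and 10 lowest and PTU mouse 11 highest of all 8. Its log2 fold change was 0.05 (SE 0.12, 95% interval -0.22 to 0.31, edgeR adjusted p = 0.945), and it ranged from -0.01 without PTU+TH mouse 16 to 0.14 without PTU mouse 11. Summed over the 4 genes, Camk2b took 49.1%, 44.5%, 38.4% and 41.3% of the CaMKII CPM in PTU mice 9 to 12 and 49.7%, 50.5%, 48.1% and 45.5% in PTU+TH mice 13 to 16. This share was chosen after the values were seen, it depends on the lengths of the genes, and the groups overlapped through PTU mouse 9.

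Camk4 (chromosome 18, 32934931 to 33191228), which encodes the nuclear kinase CaMKIV, had 96.6, 89.9, 101.7 and 110.3 CPM in PTU and 86.6, 66.0, 88.9 and 91.5 CPM in PTU+TH. PTU+TH mouse 14 was the lowest of the 8, and the groups overlapped because PTU+TH mouse 16 lay above PTU mouse 10. The means were 99.6 ± 8.59 and 83.2 ± 11.7 CPM (SD, n = 4 each), a log2 fold change of -0.26 (SE 0.11, 95% interval -0.50 to -0.02). The edgeR adjusted p was 0.331, and across all alternatives it lay between 0.135 and 0.605. Without PTU+TH mouse 14 the log2 fold change was -0.16. The sign opposes that of Nrgn, the other member known as a thyroid hormone responsive gene; the difference between these genes was not tested.

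Nrgn (chromosome 9, 37544492 to 37552904), whose product neurogranin releases calmodulin when calcium rises, had 35.3, 22.1, 22.0 and 13.4 CPM in PTU and 45.1, 27.4, 41.2 and 23.7 CPM in PTU+TH. PTU+TH mice 13 and 15 were highest and PTU mouse 12 lowest, and PTU mouse 9 lay above PTU+TH mice 14 and 16. The means were 23.2 ± 9.03 and 34.3 ± 10.4 CPM (SD, n = 4 each), a log2 fold change of 0.56 (SE 0.29, 95% interval -0.08 to 1.21, edgeR adjusted p = 0.485). The log2 fold change ranged from 0.38 without PTU mouse 12 to 0.85 without PTU mouse 9. The interval therefore includes no difference and a rise of more than a factor of 2 on the linear scale.

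The excitatory neuron gene Slc17a7, a vesicular glutamate transporter, had 50.7, 51.4, 22.8 and 15.8 CPM in PTU mice 9 to 12 and 44.0, 23.9, 57.9 and 28.0 CPM in PTU+TH mice 13 to 16. Within PTU+TH, mice 13 and 15 were highest both in Slc17a7 and in Nrgn, and within PTU mouse 12 was lowest in both. Other ranks differed. PTU mouse 10 was the highest PTU mouse in Slc17a7, but its Nrgn (22.05 CPM) was near that of PTU mouse 11 (21.97 CPM) and below that of PTU mouse 9 (35.3 CPM). The mean log2 CPM of the excitatory list and that of Nrgn had a Pearson r of 0.80 and a Spearman rho of 0.762 over the 8 libraries (exact permutation, p = 0.0187 and 0.0368; adjusted over 54 relations, 0.0847 and 0.164). Without the 2 libraries farthest from the median of the list, r was 0.512. With the excitatory list as a covariate the log2 fold change of Nrgn was 0.49 (edgeR adjusted p = 0.107).

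For Pcp4, the other IQ motif protein, PTU mice 9 to 12 gave 72, 61, 24 and 20 counts, and PTU+TH mice 13 to 16 gave 70, 59, 78 and 47. In CPM these were 2.62, 2.30, 1.19 and 0.87 against 2.95, 2.03, 3.54 and 2.24, and the groups overlapped. The log2 fold change was 0.61 (SE 0.35, 95% interval -0.15 to 1.36, edgeR adjusted p = 0.538). It ranged from 0.39 without PTU mouse 12 to 0.88 without PTU mouse 9. The gene (chromosome 16, 96467606 to 96525793) lies almost wholly within Igsf5, and 213 bases at its end, or 0.4% of its body, are free of other genes. Among 683 coding genes that lie wholly inside other genes and share no exon base with them, 683 were at 0. How large a part of its reads the Pcp4 count holds was not tested, so its level is not set beside those of the other members.

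Neither Calm2 nor Calm3 passed the test, and their coefficients of variation within PTU were 30.8% and 48.1%. Calm2 (chromosome 17, 87433412 to 87446935) had 243.6, 156.9, 156.6 and 121.0 CPM in PTU and 167.0, 179.5, 231.8 and 179.5 CPM in PTU+TH. Calm3 (chromosome 7, 16915379 to 16924114) had 129.8, 65.03, 60.9 and 48.4 CPM in PTU and 65.7, 74.9, 122.5 and 80.5 CPM in PTU+TH. In both genes PTU mouse 9 was the highest library and PTU mouse 12 the lowest, and PTU+TH mouse 15 came next after mouse 9. The log2 fold changes were 0.16 for Calm2 (SE 0.19, 95% interval -0.25 to 0.57, edgeR adjusted p = 0.827) and 0.17 for Calm3 (SE 0.32, -0.55 to 0.90, 0.911). Over fits that left out a library, Calm2 ranged from 0.03 without PTU mouse 12 to 0.39 without PTU mouse 9, with edgeR adjusted p-values of at least 0.139. Calm3 ranged from -0.05 without PTU+TH mouse 15 to 0.57 without PTU mouse 9, with at least 0.196.

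Calm2 and Calm3, on different chromosomes, varied together over the libraries. Over the 8 libraries their log2 CPM had a Pearson r of 0.983 and a Spearman rho of 0.976 (exact permutation, p = 4.96e-05 and 0.000397; adjusted over 54 relations, 0.00268 and 0.0214). Without the 2 libraries farthest from the median, r was 0.988. The genes of a library share its total and its RNA. No value was computed within a group, so these values include any difference between the groups. The summed level of the excitatory markers was 314.8, 321.3, 304.0 and 259.5 CPM in PTU mice 9 to 12 and 317.1, 264.8, 374.3 and 292.3 CPM in PTU+TH mice 13 to 16. That of the astrocyte markers was 226.1, 240.6, 179.0 and 125.0 CPM, then 258.5, 127.2, 366.4 and 195.1 CPM. PTU+TH mouse 15 was highest and PTU mouse 12 lowest in both sums. PTU mouse 9, highest in Calm2 and Calm3, lay below PTU mouse 10 in these sums and in that of the endothelial markers (54.1 and 152.3 CPM). It lay above PTU mouse 10 in the sums of the oligodendrocyte markers (123.2 and 115.0 CPM), microglia markers (69.4 and 58.3 CPM), GABAergic markers (2843 and 2388 CPM) and striatal GABAergic markers (366.0 and 326.0 CPM). The mean log2 CPM of the excitatory list, which weights its genes equally, was 3.69 in PTU mouse 9 and 3.34 in PTU mouse 10, with PTU+TH mouse 15 highest at 3.79 and PTU mouse 12 lowest at 2.29. This mean had Pearson r values of 0.792 and 0.775 with Calm2 and Calm3 (exact permutation, adjusted p = 0.0847 for each) and rho values of 0.667 and 0.714 (exact permutation, adjusted p = 0.187 and 0.164). Without the 2 farthest libraries r was 0.476 and 0.506. The part of other cell types in this spread was not tested.

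Among the binders, Nrgn and Pcp4 had a Pearson r of 0.89 and a Spearman rho of 0.881 (exact permutation, n = 8, adjusted p = 0.0268 and 0.0652), and r was 0.771 without the 2 farthest libraries. Pcp4 and the excitatory list had an r of 0.849 and a rho of 0.952 (exact permutation, adjusted p = 0.0797 and 0.0308), and r was 0.605 without the 2 farthest libraries. Nrgn and that list had an r of 0.80 and a rho of 0.762 (exact permutation, adjusted p = 0.0847 and 0.164), and r was 0.512 without the 2 farthest libraries. Between the calmodulin genes and the binders, r was 0.776 for Calm2 with Nrgn, 0.792 for Calm2 with Pcp4, 0.691 for Calm3 with Nrgn and 0.745 for Calm3 with Pcp4 (exact permutation, adjusted p from 0.0847 to 0.142), with rho from 0.667 to 0.738 (exact permutation, adjusted p from 0.164 to 0.187).

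Between the calmodulin genes and the kinases, r was negative with Camk2a and Camk2g and did not pass after adjustment. It was -0.748 for Calm2 and -0.767 for Calm3 with Camk2a, and -0.747 and -0.775 with Camk2g (exact permutation, adjusted p from 0.0847 to 0.0974). Without the 2 farthest libraries these values were -0.554, -0.679, -0.443 and -0.613. The rho values were -0.929 and -0.881 with Camk2a (exact permutation, adjusted p = 0.0402 and 0.0652) and -0.667 and -0.714 with Camk2g (exact permutation, adjusted p = 0.187 and 0.164). With Camk2b, Camk2d and Camk4, r lay between -0.48 and 0.281 (exact permutation, lowest adjusted p = 0.348). Without the 2 farthest libraries these values ranged from -0.7 for Calm3 with Camk4 to 0.519 for Calm3 with Camk2b. With all 8 libraries those 2 pairs had r values of -0.212 and 0.19.

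The share of counts taken by short coding genes, with a body under 10 kb and leaving out the members, also varied. It was 9.47%, 8.29%, 6.37% and 6.84% in PTU mice 9 to 12 and 8.11%, 7.90%, 7.72% and 6.76% in PTU+TH mice 13 to 16, with means of 7.74 ± 1.41% and 7.62 ± 0.594% (SD over 4 mice); a two-sided exact permutation test gave p = 0.83. Against this share, Camk2d had a Pearson r of -0.918 and a rho of -0.905 (exact permutation, n = 8, adjusted p = 0.0268 and 0.0616), and r was -0.842 without the 2 farthest libraries. Camk2g and Camk2a had r values of -0.844 and -0.792 (exact permutation, adjusted p = 0.0797 and 0.0847), and -0.476 and -0.322 without the 2 farthest libraries. Their rho values were -0.738 and -0.571 (exact permutation, adjusted p = 0.164 and 0.289). Calm2 had an r of 0.595 and a rho of 0.476 (exact permutation, adjusted p = 0.232 and 0.336), and r was 0.307 without the 2 farthest libraries. For Calm3 r was 0.586 and rho 0.405 (exact permutation, adjusted p = 0.247 and 0.401), with r at 0.182 without those libraries. With the share as a covariate, which was added after seeing the data, 1064 genes were called (6.13%) and Camk2b was among them, with a log2 fold change of 0.28 (edgeR adjusted p = 0.014); the other 8 members were not called. The part of this share in the spread of Calm2, Calm3, Camk2a and Camk2g was not tested.

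**Figure D2:**
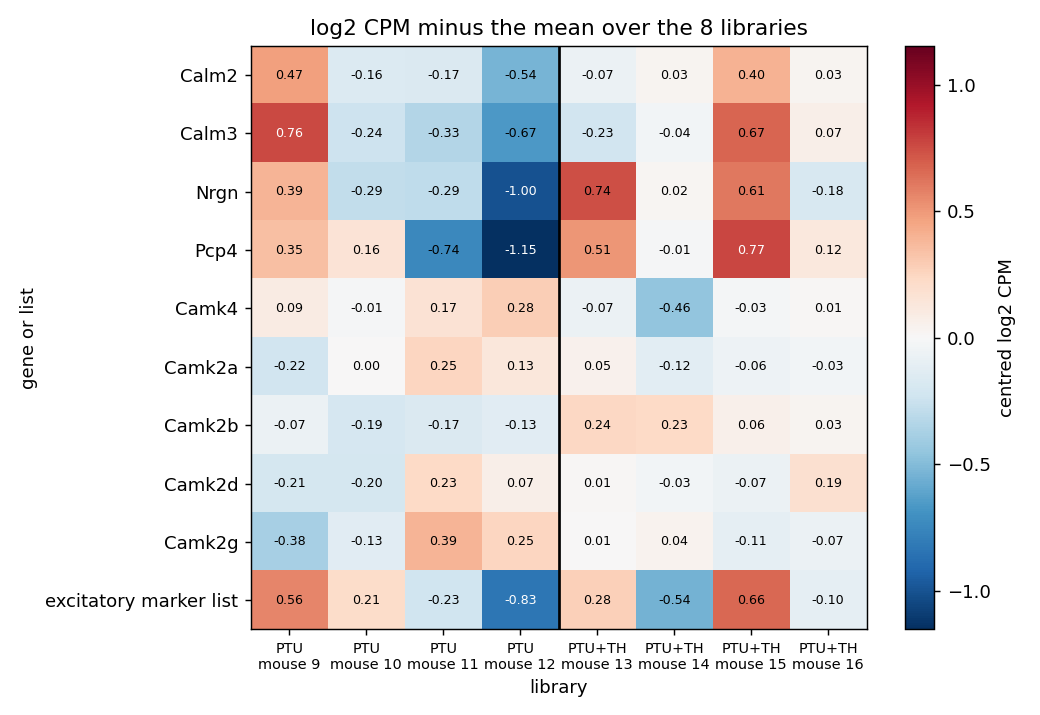
Centred log2 CPM (colour and number: the value minus the mean over the 8 libraries) of each gene and of the excitatory marker list (rows) in each library (columns; the black line separates PTU from PTU+TH). Mouse 9 and mouse 15 are high in Calm2, Calm3 and Nrgn, and mouse 12 is low in all of these. Mouse 13 is the highest in Nrgn but lies below the mean in Calm2 and Calm3. Camk2b is above its mean in the 4 PTU+TH libraries and below it in the 4 PTU libraries.

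Genes with a pattern like that of a member were sought for the 3 members that varied most over the 8 libraries, by the root mean square difference of centred log2 CPM. For Calm3 the nearest were Mrfap1, Cdkn2d and Fem1b, at 0.07, 0.08 and 0.08, where the median over all genes was 0.52. For Nrgn they were Dbx2, H1f0 and Atp6ap1l, at 0.16, 0.18 and 0.21, beside a median of 0.58. For Pcp4 they were Tst, Cst3 and Bsg, at 0.16, 0.18 and 0.19, beside a median of 0.64.

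Levels can be compared between genes only per length. Per kb of merged exons, Calm2 was highest, with 122.3 CPM per kb (82.5 to 166 over the 8 libraries), above the range of every other member. Camk2b followed with 61.1, Calm3 with 33.4, Camk2a with 29.5, Camk4 with 28.1, Camk2g with 26.7, Nrgn with 19.8 and Camk2d with 11.9 CPM per kb. From Camk2b down to Camk2d each gene overlapped the next in its range over libraries.

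Per kb of gene body, introns included, the order was Calm2 with 13.3, Calm3 with 9.27, Camk2b with 5.76, Camk2a with 3.52, Nrgn with 3.42, Camk2g with 2.89, Camk2d with 1.07 and Camk4 with 0.36 CPM per kb. On this scale Camk2b stood clear of Camk2a, while Calm2, Calm3 and Camk2b overlapped from each to the next. Camk4, whose exons are 3259 bases of a body of 256298, moved from the fifth place to the eighth. Which length fits depends on whether reads from introns were counted, which the sources used here do not state. The 683 coding genes nested in other genes with no exon base in common were all at 0 in the 8 libraries. Of 11813 coding genes free of any overlap, 21.4% were at 0. How introns were counted was not tested, so the order per kb of exons is not preferred to that per kb of gene body.

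**Figure D3:**
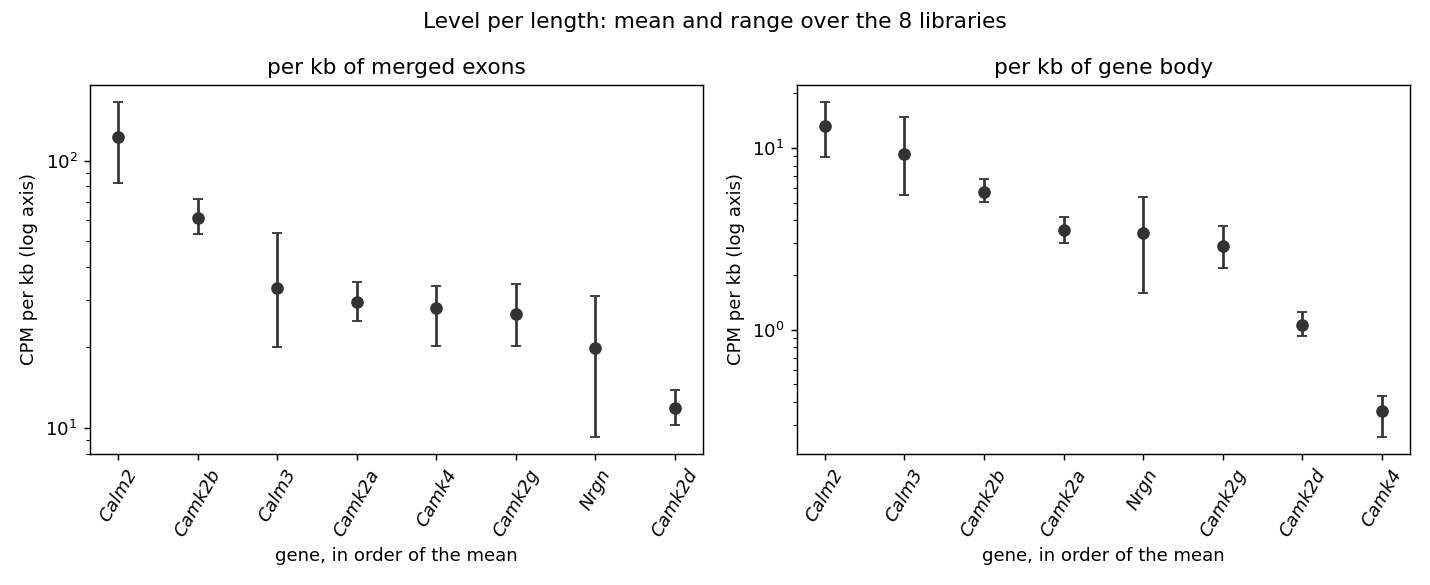
Mean CPM per kb (points, log axis) with the lowest and highest of the 8 libraries (bars), per kb of merged exons on the left and of gene body on the right, for each member but Pcp4, in order of the mean. Calm2 leads on both scales, with 122.3 per kb of exon and 13.3 per kb of gene body. Pcp4 is not plotted.

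The other genes of the calmodulin pathway were taken from 6 lists of calmodulin genes, binders, kinases, calcineurin, other regulated enzymes and transcription factors. Of 73 genes other than the members, 67 were tested, and 2 rose, 1 fell and 64 did not pass. That is 4.48% called, where 2.12% of all genes were called. The median log2 fold change of the 67 was 0.03. The 3 genes that passed were the Pcp4 paralogue Pcp4l1, the CaMKII inhibitor Camk2n1 and the kinase Camk1g.

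In the list of binders and buffers, which also holds CaMKII inhibitors and calcineurin regulators, 2 of 9 tested genes rose and 0 fell. Over all genes 1.49% rose and 0.634% fell. An unadjusted edgeR p under 0.05 was found for 3 of the 9, where the share over all genes was 12.8%. The groups did not overlap in 2 of the 9, and in 8.71% of all genes. The first of the 2 that rose, Pcp4l1 (chromosome 1, 171173262 to 171196268), encodes a peptide with an IQ motif. Whether this peptide binds calmodulin was not tested. Pcp4l1 had 13.0, 8.39, 8.21 and 7.57 CPM in PTU and 14.7, 17.4, 19.6 and 18.5 CPM in PTU+TH. All PTU+TH libraries lay above all PTU libraries, with PTU mouse 9 apart from the other PTU mice. Its mean rose from 9.30 ± 2.52 to 17.5 ± 2.12 CPM (SD over 4 mice), with a log2 fold change of 0.91 ± 0.18 (SE) and an edgeR adjusted p of 0.0182. Pcp4l1 lost its call without PTU mouse 10 (0.0612), PTU mouse 12 (0.0557) or PTU+TH mouse 14 (0.0548), 15 (0.0781) or 16 (0.0647), with log2 fold changes of 0.82 to 0.92 in these fits. Unlike Pcp4, its body is free of other genes.

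Camk2n1 (chromosome 4, 138454314 to 138460123), which encodes a small protein that binds and blocks active CaMKII, had 30.6, 19.9, 25.3 and 20.3 CPM in PTU and 41.1, 37.2, 44.8 and 37.6 CPM in PTU+TH. The groups did not overlap. The mean of Camk2n1 rose from 24.1 ± 5.02 to 40.2 ± 3.55 CPM (SD over 4 mice), with a log2 fold change of 0.74 ± 0.14 (SE) and an edgeR adjusted p of 0.0135. Without PTU+TH mouse 15 its adjusted p was 0.0618. Camk2n2, the other CaMKII inhibitor gene, was listed at 0, and 0% of its body is free of other genes.

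The remaining genes of this list did not pass. Gap43, the growth cone protein that binds calmodulin like neurogranin, averaged 147 ± 29.97 CPM in the PTU mice and 117 ± 19.4 CPM in the PTU+TH mice (SD over 4), a log2 fold change of -0.32 with an edgeR adjusted p of 0.401. It was -0.17 without PTU mouse 9. Marcks, Marcksl1 and Basp1, which bind calmodulin at the membrane, were at -0.19, -0.12 and 0.03 on the log2 scale, and the calcineurin regulators Rcan1, Rcan2 and Rcan3 had 0.23, 0.12 and -0.10.

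Among the kinases other than the members, 0 of 15 tested genes rose and 1 fell, where 1.49% of all genes rose and 0.634% fell. An unadjusted edgeR p under 0.05 was found for 5 of the 15 (1 higher, 4 lower), where the share over all genes was 12.8%. The groups did not overlap in 5 of the 15, and in 8.71% of all genes. Camk1g, the gamma member of the CaMKI family, had 99.5, 99.6, 94.0 and 111.1 CPM in PTU and 75.4, 76.9, 71.9 and 74.0 CPM in PTU+TH, with no overlap. The mean of Camk1g fell from 101 ± 7.18 to 74.5 ± 2.11 CPM (SD over 4 mice), with a log2 fold change of -0.44 ± 0.08 (SE) and an edgeR adjusted p of 0.0123. Without PTU+TH mouse 15 the adjusted p was 0.0531. In the related Camk1 the log2 fold change was -0.35 (edgeR adjusted p = 0.151), in Pnck -0.26 (0.33) and in Camk1d 0.19 (0.742). The kinases that activate CaMKI and CaMKIV, Camkk1 and Camkk2, had 0.08 and 0.19 without passing (edgeR adjusted p of Camkk2 0.349). The largest positive value in the list was that of Phkg1, 0.38 (edgeR adjusted p = 0.493).

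All 3 of these genes lost the call with the presence of Y-linked counts as a covariate, with edgeR adjusted p-values of 0.179 for Pcp4l1, 0.12 for Camk2n1 and 0.0988 for Camk1g and log2 fold changes of 0.78, 0.70 and -0.41. The only libraries without Y-linked counts were in PTU+TH, so that covariate and the group are partly shared.

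**Figure D4:**
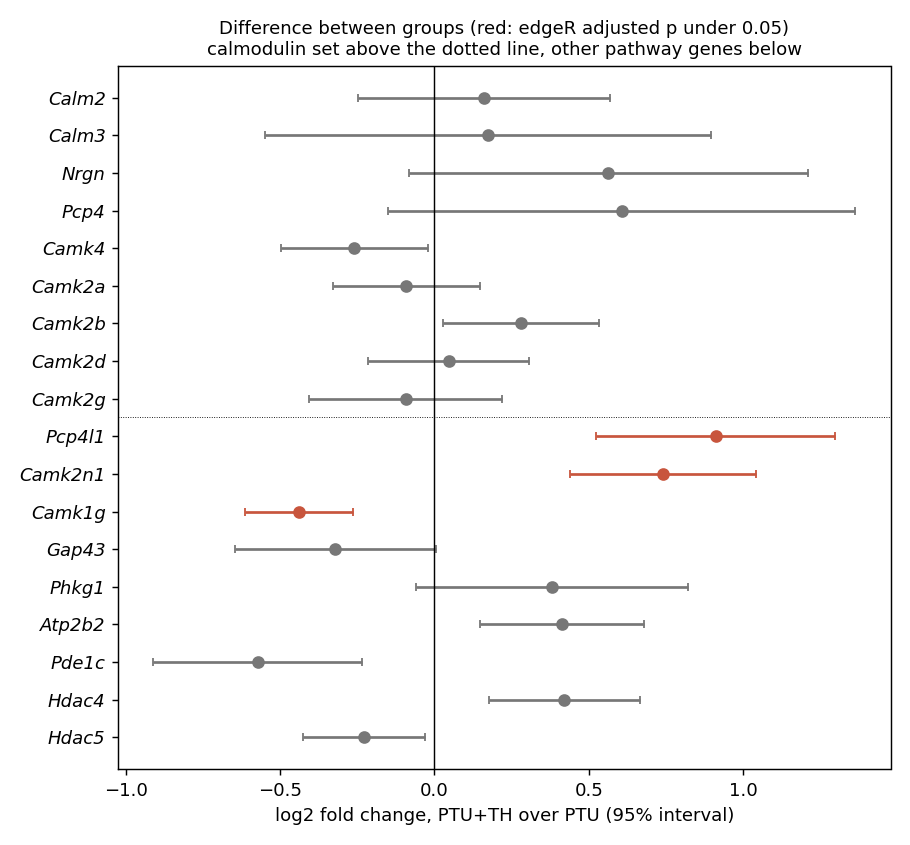
Log2 fold change of PTU+TH over PTU (horizontal axis; points with 95% intervals) for the calmodulin set above the dotted line and for other genes of the pathway below it; red marks an edgeR adjusted p under 0.05. Pcp4l1 at 0.91, Camk2n1 at 0.74 and Camk1g at -0.44 are red, and none of the members is.

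In the calcineurin list, the calmodulin-dependent phosphatase and its targets, edgeR called 0 of 9 tested genes, as did DESeq2 and limma voom, and 1 had an unadjusted edgeR p under 0.05, where the share over all genes was 12.8%. Its catalytic genes Ppp3ca, Ppp3cb and Ppp3cc were at 0.16, 0.03 and -0.02 on the log2 scale. The extremes were Nfatc1 at 0.47 and Nfatc4 at -0.28, and both changed sign when single libraries were left out. Of 20 other calmodulin-regulated enzymes and pumps edgeR called 0, limma voom 0 and DESeq2 2, Atp2b2 (adjusted p = 0.0072) and Pde1c (0.026), and 3 had an unadjusted edgeR p under 0.05. Over all genes DESeq2 called 4.31% and 12.8% had such an unadjusted p. The largest values were those of the plasma membrane calcium pump Atp2b2, 0.41 (385.5 ± 38.9 CPM against 513.3 ± 45.8 CPM; edgeR adjusted p = 0.121), and of the phosphodiesterase Pde1c, -0.57 (61.6 ± 13.2 and 41.4 ± 6.32 CPM; edgeR adjusted p = 0.0923). Leaving out a library put the edgeR adjusted p of Pde1c between 0.00664 (without PTU mouse 9) and 0.231, and that of Atp2b2 between 0.102 and 0.303.

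Of 13 tested transcription factors and cofactors downstream of the calmodulin kinases, edgeR called 0, limma voom 0 and DESeq2 1, Hdac4, and 3 had an unadjusted edgeR p under 0.05, where DESeq2 called 4.31% of all genes and 12.8% had such an unadjusted p. The groups did not overlap in 3 of the 13, and in 8.71% of all genes (4.68% higher and 4.03% lower in PTU+TH). Creb1, the classic target of CaMKIV, averaged 36.5 CPM without and 43.9 CPM with TH (log2 fold change 0.26, edgeR adjusted p = 0.169). The histone deacetylases Hdac4 and Hdac5, which calmodulin kinases drive out of the nucleus, did not pass in edgeR, at 0.42 (edgeR adjusted p = 0.0842) and -0.23 (0.294) on the log2 scale. Both, named as the highest and lowest log2 fold changes of the list, are among the 3 without overlap, with Hdac4 at 187.3 to 252.1 CPM in PTU and 269.0 to 306.5 CPM in PTU+TH, and Hdac5 at 102.5 to 115.2 CPM and 83.8 to 101.1 CPM. The adjusted p of Hdac4 was 0.0108 with DESeq2, 0.0811 with limma voom and 0.0225 in edgeR with the excitatory list as a covariate. Over the edgeR fits without a library it lay between 0.0456 (without PTU mouse 11) and 0.224.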

How the data were processed

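Each mouse has 1 file without a header, deposited by the authors, that pairs gene symbols with whole-number read counts. Per the submitters' processing notes, Bowtie2 2.5.3 and the builds mm10 and GRCm38 were used; the counting program, the use of strand and the treatment of introns are not given in the sources used here. The 55341 symbols equal those of GENCODE M21 on GRCm38, from which positions and lengths come, and rows that name no gene numbered 0. Nuclear RNA was amplified with the SMART-Seq v4 kit and sequenced single-end, per the labels' protocols.

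Groups came from the titles; each library is from 1 cortex, and litters are not given. The groups were compared in R 4.3.3 by edgeR 4.0.16 (filterByExpr, TMM, robust quasi-likelihood, group as the only term, two-sided, Benjamini-Hochberg over all 17355 genes kept). Intervals follow from the SE and the test's degrees of freedom. DESeq2 1.42.0 and limma voom 3.58.1 were alternatives, as were other scalings, filters, covariates and leaving out each library. The scripts were tested on simulated data. Chi-square per degree of freedom between libraries of a group was 8.38 to 72.61 over 12 pairs, so none was a copy of another.

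The members and lists were chosen with earlier results of these data known. Named were all members, called genes of the pathway lists and each list's largest rise and fall; other genes of the lists, named as examples of their roles, were chosen after their values were seen. A gene that the rule also covers is not reported here.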

Additional observations from a re-analysis of the deposited data

Results flagged for a closer look

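For each named gene and group the highest and lowest mouse were compared with the rest by Dixon's gap ratio. Of 50 such sets, 1 had a mouse standing apart, and about 2.5 would by chance alone. Pcp4l1 in PTU mouse 9 stood at 13.0 CPM, against 7.57 to 8.39 CPM in the other 3.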

How the results depend on the processing

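No paired analysis was possible because no mouse number occurs in both groups. Of all genes, 368 were called; the count was 748 (456 higher, 292 lower) with DESeq2, 129 (106 higher, 23 lower) with Y-linked counts as a covariate, and, in settings added after seeing the data, 1064 with the short-gene share as a covariate and 58 (52 higher, 6 lower) using just the 6 libraries that have Y-linked counts. Leaving out a library gave 182 to 499; it gave 233 without PTU mouse 12, and 238, 227, 182 and 209 without PTU+TH mice 13 to 16. The count of members called, 0, was 1 (Camk2b) with DESeq2 and 1 with the short-gene share, and 0 to 0 in the fits without a library. The other pathway genes called, 3, were 6 with DESeq2, 9 with the short-gene share, 0 with the Y covariate and 0 using the 6 libraries, and 0 (without PTU+TH mouse 15) to 4 in the fits without a library. Library totals alone called 4, with Atp2b2 (0.0433), Pde1c and Hdac4 and without Pcp4l1 (0.0766) and Camk2n1 (0.0671). The 6 libraries hold fewer mice. Elsewhere the cause was not tested.

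Nrgn, Pcp4, Camk4, Camk2a, Camk2b and Calm2 kept their direction under all 19 alternatives. Signs changed for Camk2d, Camk2g and Calm3 among the members and for Calml4, Nfatc1 and Nfatc4. With the Y covariate Calm3 was at -0.115, and using the 6 libraries at -0.113. Over fits without a library the ranges were -0.01 to 0.137 for Camk2d, -0.21 to 0.034 for Camk2g, -0.046 to 0.568 for Calm3, -0.021 to 0.876 for Calml4, -0.565 to 0.997 for Nfatc1 and -1.053 to 0.354 for Nfatc4. Nfatc1 was at -0.061 with limma voom, -0.176 with the excitatory list, -0.413 with the Y covariate and -0.405 using the 6 libraries. Nfatc4 was at -2.099 both with the Y covariate and using the 6 libraries, against -0.279 in the main fit. Other scalings shifted the median log2 fold change by -0.0214 to 0.0129. Only 4 mice a group limit the precision.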
